A study of Zea mays with 8 samples.

Results

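Of 39475 genes measured in kernels of the maize inbred B73, 40 were chosen because their level was higher in the starchy endosperm than in the aleurone in every library. A gene was taken where its lowest TPM over the 4 starchy endosperm libraries was at least 10 and at least 2 times its highest TPM over the 4 aleurone libraries. TPM is the share of a gene in all transcripts of a library, corrected for gene length. The limit of 200 genes set for the group was not reached, so the 40 genes are all that met the rule. Their difference between the tissues follows from this choice, and it is given below as a description without a test.

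RNA sequencing covered 4 groups of 2 biological replicates, all from B73 plants grown in a greenhouse. They were starchy endosperm at 22 and at 18 days after pollination (DAP) and aleurone at 22 and at 18 DAP. The replicates came from replicate plants. Both tissues were separated by mechanical peeling of kernels that had been frozen and thawed, and were rinsed in water, so an aleurone sample is a peel and not a sorted cell type.

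The starchy endosperm is the inner mass of the maize endosperm, which fills with starch and with zeins, the storage proteins kept in protein bodies of the endoplasmic reticulum. Sucrose reaching these cells is cleaved and turned into ADP-glucose, largely in the cytosol in cereals, and ADP-glucose enters the amyloplast, where starch synthases build starch from it. The aleurone is the outer cell layer of the same endosperm, and it stores oil and protein and stays alive in the dry grain.

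Total expected counts ran from 2473036 to 11529170 per library. The replicate 2 library was the deeper one in every group, and it also had counts in fewer genes: 9343 to 14197 against 16784 to 18239 for replicate 1 in starchy endosperm, and 20143 to 20682 against 22851 to 23244 in aleurone. The 6 aleurone markers found by name summed to 41.6 to 53.4 TPM in starchy endosperm and to 11039 to 38826 TPM in aleurone. Markers of the basal transfer layer summed to at most 0.19 TPM in starchy endosperm and 2.98 TPM in aleurone, and 3 of the 5 found were at 0 in all 8 libraries. Embryo markers summed to 1.04 to 3.72 and 12.5 to 25.7 TPM, and markers of the pericarp and maternal tissue to 0 to 0.5 and 21.1 to 232 TPM, in starchy endosperm and in aleurone. These sums were uneven over genes. In aleurone the embryo marker fae1 had 9.81 to 23.7 TPM and the maternal marker m6 had 7.68 to 185 TPM, while lec1 and P were at 0 in every library.

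The 6 starchy endosperm markers found by name summed to 192098 to 226311 TPM in starchy endosperm and to 30608 to 41929 TPM in aleurone. All but 1 of them are among the 40 genes, so they are no independent check of the label. The exception was o2 (GRMZM2G015534), which encodes the bZIP activator of zein genes. It had 69.98 and 115 TPM at 22 DAP and 149 and 255 TPM at 18 DAP in starchy endosperm, against 66.6 and 107 TPM at 22 DAP and 77.1 and 90.4 TPM at 18 DAP in aleurone. The tissues overlapped in TPM, but o2 met the same thresholds on counts scaled by library size and TMM factors, a scale described further below. Whether starchy endosperm tissue left on the peels contributed to the aleurone values of the 40 genes was not tested, and in such bulk samples fewer cells of a type and less RNA per cell cannot be told apart.

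**Figure D1:**
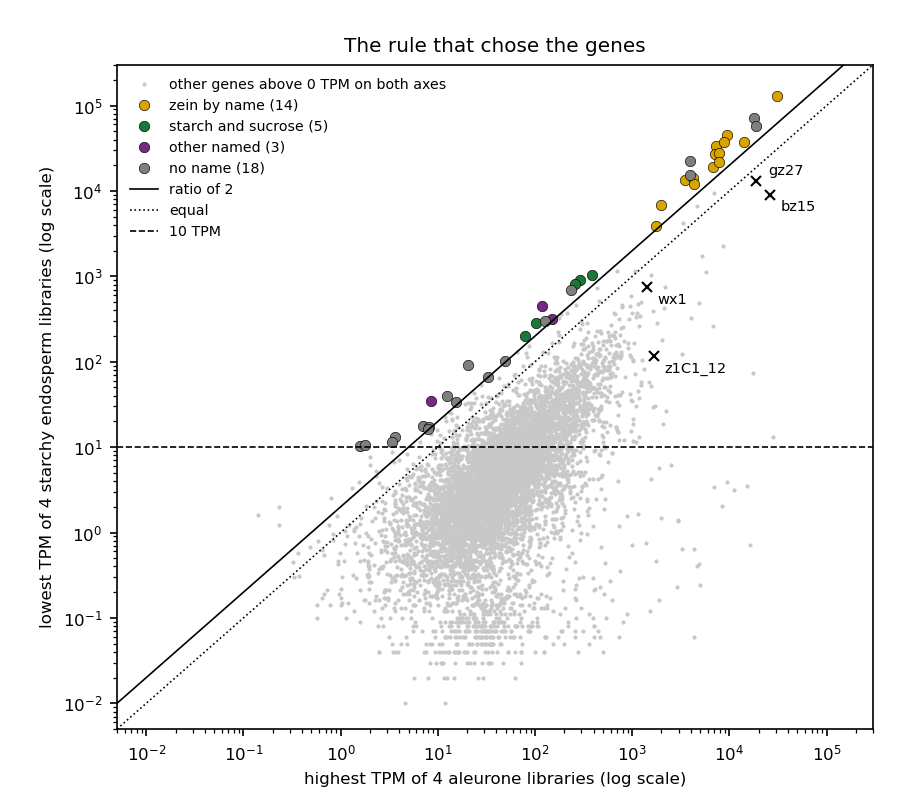
The lowest TPM of the 4 starchy endosperm libraries is plotted against the highest TPM of the 4 aleurone libraries for each gene, both on log scales, with lines at equality, at a ratio of 2 and at 10 TPM. The 40 genes lie above the solid and the dashed line by construction, while gz27, bz15, wx1 and z1C1_12 (crosses) lie below the line of equality.

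By name, 14 of the 40 genes were zeins, 5 were genes of starch synthesis and sucrose cleavage, 3 carried other names and 18 had no name in the reference table of gene names. Here and below, paired values are replicates 1 and 2. Together the genes held 77.4% and 66.2% of all TPM at 22 DAP and 75.6% and 64.4% at 18 DAP in starchy endosperm. They held 16.0% and 12.4% at 22 DAP and 12.9% and 10.5% at 18 DAP in aleurone. The mean share was 70.9 ± 6.58% in starchy endosperm and 12.9 ± 2.29% in aleurone (SD, n = 4 each). Zeins by name made up 50.5 ± 4.56% of TPM in starchy endosperm and 9.37 ± 1.58% in aleurone. The starch and sucrose genes together made up 0.500 ± 0.0989% and 0.0837 ± 0.0110%.

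Levels within the group spanned a wide range. The mean over the 4 starchy endosperm libraries ran from 18.3 to 148502 TPM, with a median of 1336 TPM. It was at least 1000 TPM in 21 genes, 100 to 1000 TPM in 8 and under 100 TPM in 11. In the whole series 19 genes averaged 10000 TPM or more in this tissue, and 16 of those were among the 40. The mean aleurone level was 3.72% to 43.2% of the starchy endosperm level, with a median of 17.3%.

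**Figure D2:**
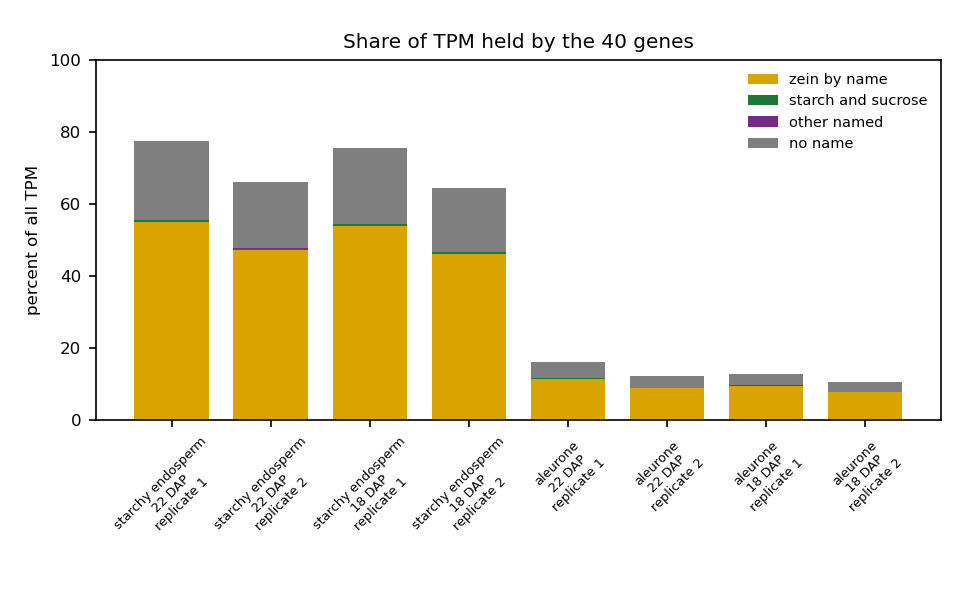
Bars give the percent of all TPM held by the 40 genes in each of the 8 libraries, split into zeins by name (14 genes), starch and sucrose genes (5), other named genes (3) and genes with no name (18). Bars reach 64.4% to 77.4% in starchy endosperm and 10.5% to 16.0% in aleurone, and replicate 1 is the taller bar in each group.

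Alpha-zeins, the most abundant storage proteins of the kernel, made up 13 of the 14 zeins. The highest level of all belonged to GRMZM2G059620, an ID paired with both z1A1_3 and z1A1_4 in the reference table. It had 169320 and 148131 TPM at 22 DAP and 148046 and 128511 TPM at 18 DAP in starchy endosperm, against 30781 and 23793 TPM at 22 DAP and 25341 and 20748 TPM at 18 DAP in aleurone. The lowest starchy endosperm value was 4.17 times the highest aleurone value.

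The zein with the largest such ratio was z1A2_1 (GRMZM2G008341), at 4.84. It had 57789 and 49432 TPM at 22 DAP and 52858 and 45563 TPM at 18 DAP in starchy endosperm, and 9413 and 7318 TPM at 22 DAP and 8805 and 6944 TPM at 18 DAP in aleurone. Next came z1C2 (GRMZM2G397687), also known as floury2, an alpha-zein whose mutant form disturbs protein bodies. Its starchy endosperm levels were 33220 and 39979 TPM at 22 DAP and 36662 and 43279 TPM at 18 DAP, against 6763 and 7316 TPM at 22 DAP and 6929 and 6974 TPM at 18 DAP in aleurone. A second gene of the z1A2 subfamily, z1A2_2 (GRMZM2G008913), averaged 43796 ± 6844 TPM in starchy endosperm and 7029 ± 1477 TPM in aleurone (SD, n = 4 each).

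Of the 14 zeins, the 4 z1C1 genes had the highest mean level in aleurone relative to starchy endosperm. For z1C1_19 (GRMZM2G160739) the mean aleurone level was 29.9% of the starchy endosperm level, and for z1C1_7 (GRMZM2G346897) it was 28.1%. The corresponding figures were 24.6% for z1C1_8 (GRMZM2G044152) and 21.7% for z1C1_4 (GRMZM2G044625), with z1A2_3 (GRMZM2G026939) next at 21.2% and z1A2_1 lowest at 15.8%. By the ratio of the lowest starchy endosperm to the highest aleurone value the order differed: z1A2_3 was the lowest zein at 2.24, below z1A1_5 at 2.66 and the z1C1 genes at 2.75 to 3.80. z1C1_8 was also the steadiest of the 40 genes within the starchy endosperm, at 12253 ± 172 TPM (SD, n = 4). The zein by name next in abundance to z1A1_3/z1A1_4 was z1A1_5 (GRMZM2G053120), and it was far less even. It had 74388 and 45192 TPM at 22 DAP and 69945 and 37879 TPM at 18 DAP in starchy endosperm, with the higher value in replicate 1 both times. In aleurone it had 14261 and 7801 TPM at 22 DAP and 9913 and 5540 TPM at 18 DAP.

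Gamma-zeins form the outer shell of protein bodies. The single one by name in the group was gz50 (GRMZM2G138689). It had 20787 and 14071 TPM at 22 DAP and 26922 and 17918 TPM at 18 DAP in starchy endosperm, against 3826 and 2187 TPM at 22 DAP and 4224 and 2530 TPM at 18 DAP in aleurone. The remaining zeins by name, z1A1_2, z1A1_6 (floury4), z1A1_7 and z1A2_3, averaged 4272 to 32165 TPM in starchy endosperm and 904 to 5857 TPM in aleurone. Zein copies are nearly identical, so their separate levels depend on how RSEM, the authors' counting tool, divided shared reads. The posterior standard deviation that RSEM gave for that division, in the deepest starchy endosperm library, was at most 0.504% of the count in any of the 40 genes, which does not cover copies missing from the annotation.

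Starch synthesis was represented by both subunits of ADP-glucose pyrophosphorylase, the enzyme that makes ADP-glucose. The large subunit gene sh2 (GRMZM2G429899) had 1193 and 813 TPM at 22 DAP and 1565 and 942 TPM at 18 DAP in starchy endosperm, against 259 and 96.6 TPM at 22 DAP and 221 and 126 TPM at 18 DAP in aleurone. The small subunit gene bt2 (GRMZM2G068506) had 1721 and 909 TPM at 22 DAP and 2349 and 1193 TPM at 18 DAP in starchy endosperm, against 233 and 82.2 TPM at 22 DAP and 289 and 139 TPM at 18 DAP in aleurone. Replicate 1 was the higher library for both genes in all 4 groups.

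The gene bt1 (GRMZM2G144081) encodes the transporter that carries ADP-glucose into the amyloplast. It ran the other way between replicates, with 288 and 535 TPM at 22 DAP and 283 and 776 TPM at 18 DAP in starchy endosperm, against 64.4 and 103 TPM at 22 DAP and 57.1 and 94.1 TPM at 18 DAP in aleurone. Starch synthase I, encoded by ss1 (GRMZM2G129451), averaged 240 ± 28.6 TPM in starchy endosperm and 62.2 ± 16.8 TPM in aleurone (SD, n = 4 each). It was the least abundant of the 5 and the one with the highest relative aleurone level, at 25.9%.

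Sucrose cleavage was represented by sh1 (GRMZM2G089713), a sucrose synthase. Its TPM was 1028 and 1487 at 22 DAP and 1695 and 2273 at 18 DAP in starchy endosperm, against 317 and 385 at 22 DAP and 275 and 359 at 18 DAP in aleurone. The other sucrose synthases found lay on the opposite side of the tissue comparison. The level of sus1 (GRMZM2G152908) was 1.66 to 5.68 TPM in starchy endosperm and 792 to 1159 TPM in aleurone, and that of sus2 (GRMZM2G318780) was 1.19 to 37.5 TPM and 601 to 736 TPM.

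Among the 3 other named genes, fl3 (GRMZM2G006585) encodes a PLATZ protein of the endosperm, a plant zinc-binding regulator. It had 545 and 458 TPM at 22 DAP and 765 and 455 TPM at 18 DAP in starchy endosperm, against 91.7 and 69.95 TPM at 22 DAP and 118 and 77.5 TPM at 18 DAP in aleurone. gpc4 (GRMZM2G176307), a cytosolic glyceraldehyde-3-phosphate dehydrogenase of glycolysis, had 316 and 386 TPM at 22 DAP and 437 and 472 TPM at 18 DAP in starchy endosperm, against 151 and 100 TPM at 22 DAP and 108 and 70.2 TPM at 18 DAP in aleurone. Bk2L6 (GRMZM2G167520), named after the COBRA-like gene brittle stalk2, averaged 61.2 ± 35.9 TPM in starchy endosperm and 7.32 ± 1.11 TPM in aleurone (SD, n = 4 each).

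**Figure D3:**
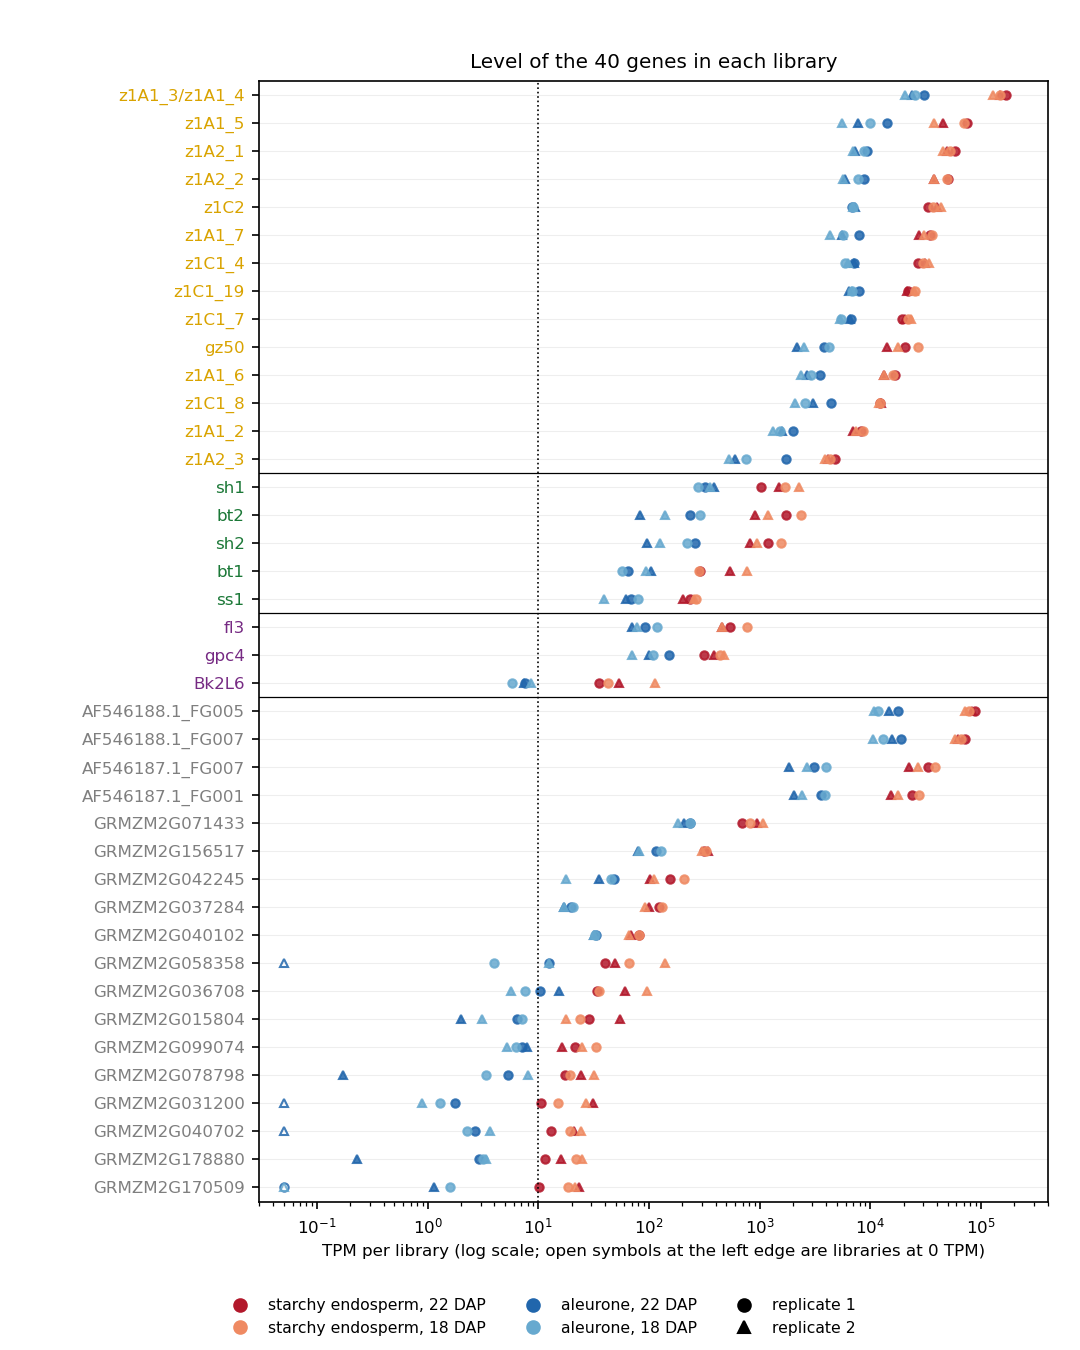
Each row is 1 of the 40 genes and each symbol 1 library, on a log scale of TPM; colours give tissue and age, circles replicate 1 and triangles replicate 2, and rows are grouped as zeins by name, starch and sucrose genes, other named genes and genes with no name. The span runs from genes near the limit of 10 TPM (dotted line) to z1A1_3/z1A1_4 at a mean of 148502 TPM in starchy endosperm, and open symbols mark the libraries of 4 genes at 0 TPM in aleurone.

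Of the 18 genes with no name, 4 were among the most abundant transcripts of the starchy endosperm. AF546188.1_FG005 had 88543 and 82904 TPM at 22 DAP and 77294 and 72157 TPM at 18 DAP in starchy endosperm, against 17934 and 14659 TPM at 22 DAP and 11804 and 10873 TPM at 18 DAP in aleurone. AF546188.1_FG007 averaged 64142 ± 5682 TPM in starchy endosperm and 14553 ± 3630 TPM in aleurone (SD, n = 4 each). The files give no function for these IDs, so any zein among them is missing from the counts and shares of zeins by name.

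AF546187.1_FG007 had the largest ratio of any gene above 10000 TPM, 5.61 between the lowest starchy endosperm and the highest aleurone value. It had 33180 and 22213 TPM at 22 DAP and 38717 and 27136 TPM at 18 DAP in starchy endosperm, against 3072 and 1840 TPM at 22 DAP and 3956 and 2703 TPM at 18 DAP in aleurone. AF546187.1_FG001 averaged 21137 ± 5507 TPM in starchy endosperm and 2985 ± 897 TPM in aleurone. Together, all 18 genes without a name held 17.7% to 21.8% of TPM in starchy endosperm and 2.69% to 4.41% in aleurone.

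The other 14 genes with no name were much lower, from 18.3 to 882 TPM in the starchy endosperm mean. The 2 largest ratios of the whole group came from this low end. GRMZM2G170509 had a ratio of 6.44, with 10.2 and 23.5 TPM at 22 DAP and 18.4 and 21.4 TPM at 18 DAP in starchy endosperm, against 0 and 1.15 TPM at 22 DAP and 1.58 and 0 TPM at 18 DAP in aleurone. These values rest on 16, 98, 36 and 148 counts in starchy endosperm and 0, 4, 2 and 0 counts in aleurone, in the same order. GRMZM2G031200 had a ratio of 6.06, with 10.7 and 31.4 TPM at 22 DAP and 15.03 and 27.1 TPM at 18 DAP in starchy endosperm and 0 to 1.76 TPM in aleurone. The aleurone values rest on 6, 0, 4 and 6 counts, so counting error alone leaves both ratios imprecise.

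The aleurone replicates at 22 DAP also lay far apart in GRMZM2G040702, GRMZM2G058358, GRMZM2G178880 and GRMZM2G078798. Replicate 2, the deeper library, had 0, 0, 0.23 and 0.17 TPM of these genes, against 2.65, 12.5, 2.88 and 5.36 TPM in replicate 1. These values rest on 0, 0, 2 and 1 counts in replicate 2 and 5.9, 7, 12 and 13 counts in replicate 1. A count of 0 in the replicate 2 library allows up to 3 counts, which is 0.428 CPM (counts scaled to library size). CPM has no length correction, so this floor is not on the scale of the TPM values. By contrast, GRMZM2G037284 was even at a moderate level: it had 123 and 100 TPM at 22 DAP and 130 and 92.2 TPM at 18 DAP in starchy endosperm, against 19.7 and 17.1 TPM at 22 DAP and 20.4 and 16.9 TPM at 18 DAP in aleurone. GRMZM2G071433 was the most abundant of these 14 genes, with 882 ± 161 TPM in starchy endosperm and 214 ± 24.4 TPM in aleurone (SD, n = 4 each).

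At the edge of the rule, GRMZM2G040102, GRMZM2G099074 and gpc4 were the last inside the ratio, at 2.02, 2.05 and 2.09. AC204711.3_FG003, the alpha-zein z1A1_8 (GRMZM2G018193) and GRMZM2G010783 were the first outside, at 1.99, 1.99 and 1.98. On the side of the minimum level, GRMZM2G170509, GRMZM2G031200 and GRMZM2G178880 entered with lowest values of 10.2, 10.7 and 11.5 TPM. AC195340.3_FG004, GRMZM2G166833 and GRMZM5G831308 stayed out at 8.67, 7.58 and 6.39 TPM, and GRMZM5G831308 was at 0 in all aleurone libraries. GRMZM2G040102 had 80.4 and 68.6 TPM at 22 DAP and 81.4 and 66.6 TPM at 18 DAP in starchy endosperm, against 32.9 and 31.6 TPM at 22 DAP and 32.3 and 31.5 TPM at 18 DAP in aleurone.

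Some of the genes lay close to each other, for which no share over other genes is given here. In the gene order of a later B73 assembly (Zm-B73-REFERENCE-NAM-5.0), in which 35 of the 40 could be placed, 16 lay within 10 genes of another one, in 5 runs. Runs of zeins held 5 z1A1 genes, 4 z1C1 genes and 3 z1A2 genes. The 2 remaining runs were the pairs GRMZM2G078798 with GRMZM2G040702 and GRMZM2G040102 with GRMZM2G031200, all 4 without a name. The highest mean level of a run in starchy endosperm was 19.1 times the lowest among the z1A1 genes (z1A1_3/z1A1_4 over z1A1_2) and 2.50 times among the z1C1 genes. In the pairs it was 1.19 times (GRMZM2G078798 over GRMZM2G040702) and 3.52 times (GRMZM2G040102 over GRMZM2G031200).

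The deposited transcript tables listed 1 transcript for 21 of the genes and 2 or more for 19. Of the latter, 15 had at least 1 TPM in every library, and the main transcript, the one with the highest mean share of the gene, was the same in both tissues in 10 of these. In GRMZM2G037284 the first transcript held 60.6% and 26.3% of the gene at 22 DAP and 60.8% and 66.95% at 18 DAP in starchy endosperm, against 82.4% and 100% at 22 DAP and 100% in both replicates at 18 DAP in aleurone, without overlap. In sh2 the first transcript averaged 61.7 ± 19.6% in starchy endosperm and 49.3 ± 28.3% in aleurone (SD, n = 4 each), and the tissues overlapped. In bt1 the share of the first transcript was 68.0 ± 12.8% and 42.9 ± 50.2%, with 2 aleurone libraries at 0%.

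The other genes of these pathways were compared with the rule by lists of names, chosen with earlier results of these data known. Over the 27269 genes above 0 TPM in at least 1 library, all starchy endosperm libraries lay above all aleurone libraries in 0.513% and all aleurone libraries above all starchy endosperm libraries in 45.4%, so counts of the second kind below are to be read against that share. Of 26 zeins found by name, 24 had at least 10 TPM in every starchy endosperm library, and 14 of those met the rule. A further 7 had all starchy endosperm libraries above all aleurone libraries but a ratio below 2. The alpha-zeins z1C1_11 (GRMZM2G088273) and z1C1_12 (GRMZM2G088365) lay on the other side: z1C1_12 had 116 to 465 TPM in starchy endosperm and 1031 to 1693 TPM in aleurone, without overlap.

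Several abundant zeins outside the group differed widely between their replicates. The gamma-zein gz27 (GRMZM2G138727) had 15147 and 66818 TPM at 22 DAP and 12971 and 61388 TPM at 18 DAP in starchy endosperm, against 5308 and 18852 TPM at 22 DAP and 4482 and 12457 TPM at 18 DAP in aleurone. Replicate 2 was the higher library in every group, so replicate 1 of the starchy endosperm lay below replicate 2 of the aleurone at 22 DAP. The beta-zein bz15 (GRMZM2G086294) showed the same order, with 9037 to 38516 TPM in starchy endosperm and 6803 to 26161 TPM in aleurone. So did gz16 (GRMZM2G060429), another gamma-zein, with 9488 to 36460 TPM and 2479 to 6873 TPM, where the tissues did not overlap. Compared within each replicate number, bz15 still fell short of the ratio of 2 in both replicates at 22 DAP and in replicate 1 at 18 DAP. At 22 DAP it had 9037 and 36398 TPM in starchy endosperm and 7141 and 26161 TPM in aleurone. At 18 DAP it had 9053 and 38516 TPM in starchy endosperm and 6803 and 17270 TPM in aleurone.

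Of 12 starch synthesis genes found, 4 met the rule and 3 more did not overlap between tissues: pho1 (GRMZM2G074158), the plastid starch phosphorylase, zpu1 (GRMZM2G158043), a debranching enzyme, and sugary2 (GRMZM2G348551), a starch synthase. pho1 had 114 to 197 TPM in starchy endosperm and 17.3 to 82.1 TPM in aleurone. The granule-bound starch synthase gene wx1 (GRMZM2G024993), which makes amylose, overlapped: it had 746 and 1769 TPM at 22 DAP and 753 and 1979 TPM at 18 DAP in starchy endosperm, against 601 and 1416 TPM at 22 DAP and 640 and 1118 TPM at 18 DAP in aleurone. Another 3 starch genes, sbe3, iso2 and agpsl1, were higher in all aleurone libraries than in any of the starchy endosperm, beside 45.4% of the genes above 0 TPM. Their levels were low: sbe3 had 0 to 0.42 TPM in starchy endosperm and 0.63 to 3.73 TPM in aleurone. The ranges were 0 to 2.43 and 4.7 to 18.1 TPM for iso2, and 0 and 9.97 to 62.6 TPM for agpsl1.

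Further lists had few or none of their genes in the group. For sucrose cleavage and sugar entry it was 1 of 9 (sh1), while 7 were higher in all aleurone libraries, beside 45.4% of the genes above 0 TPM. For central carbon metabolism it was 1 of 12 (gpc4), while 9 were higher in TPM in all aleurone libraries, beside the same 45.4%. Among the 9 was gpc1 (GRMZM2G046804), with 21.1 to 40.5 TPM in starchy endosperm and 699 to 1013 TPM in aleurone. Of 6 transcription factors of endosperm filling, 1 was in the group (fl3). None of the 6 genes of protein bodies and the endoplasmic reticulum, 8 of amino acid metabolism, 4 of defense and 4 imprinted genes met the rule.

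The replicates shaped which libraries decided the rule. The highest aleurone value lay in a replicate 1 library for 30 of the 40 genes, 20 of them in aleurone at 22 DAP. The lowest starchy endosperm value lay in a replicate 2 library for 25. TPM was higher in replicate 1 than in replicate 2 in all 4 groups in 21 genes (52.5%), among them 10 of the 14 zeins, and lower in all 4 groups in 4 genes (10%): z1C2, z1C1_4, bt1 and sh1. Among the other 1825 genes with at least 10 TPM in every starchy endosperm library, the corresponding shares were 31.5% and 15.3%.

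**Figure D4:**
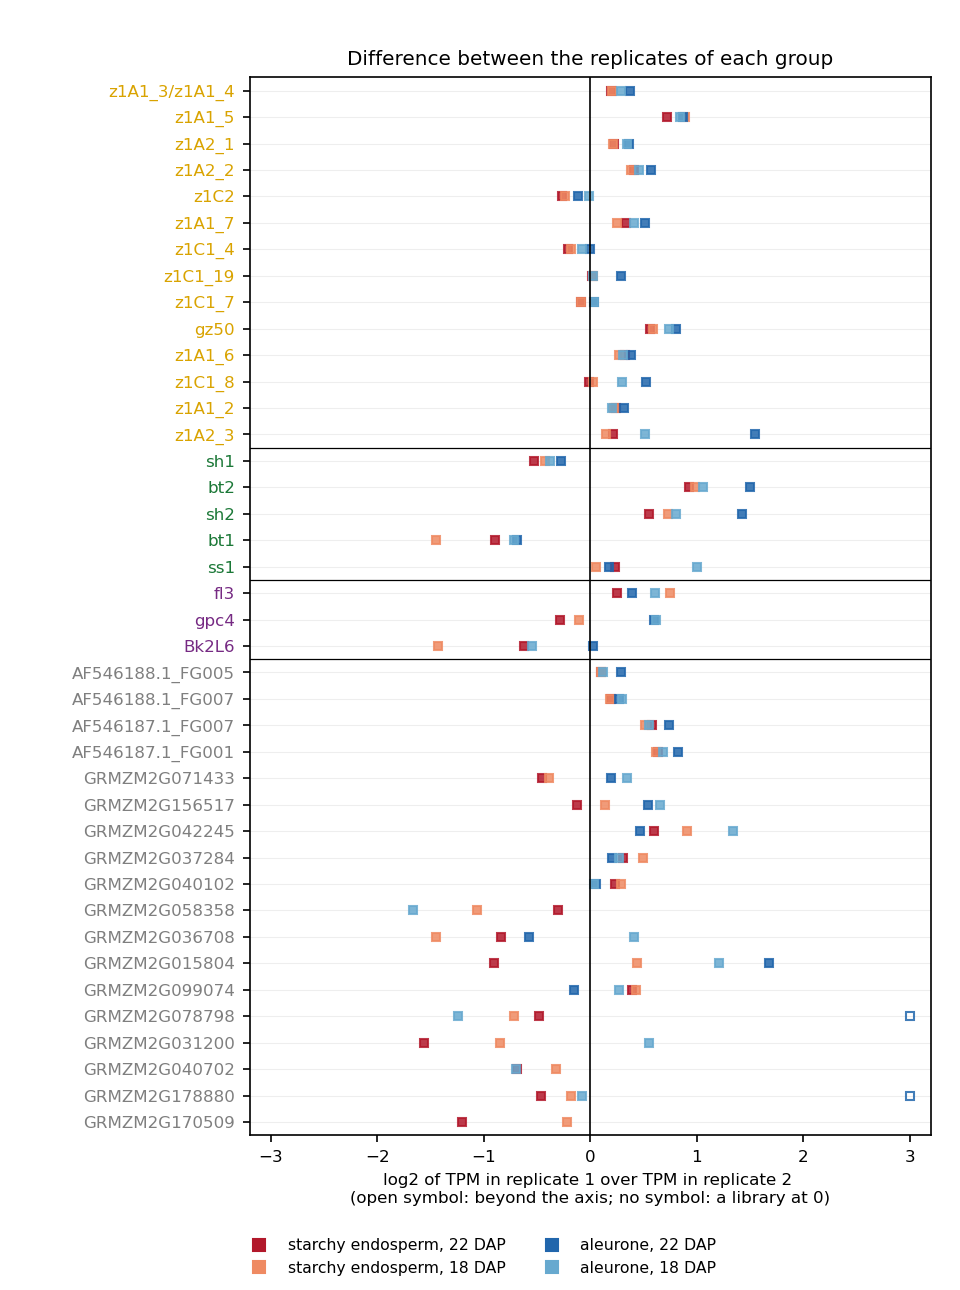
For each of the 40 genes, squares give the log2 ratio of TPM in replicate 1 to TPM in replicate 2 within each of the 4 groups, coloured by tissue and age. Most zeins lie right of 0 in all groups, while bt1 and sh1 lie left of 0 and bt2 and sh2 right of it.

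The rule did not contrast the ages, but it took the lowest and highest values over both, from the same libraries, so genes with a large change between ages or a wide spread were less likely to meet it. The tests between ages are to be read with that limit. By edgeR's quasi-likelihood test over 19058 genes, 0 of the 40 genes were called at an adjusted p under 0.05 between 22 and 18 DAP in starchy endosperm (0% of all tested genes were called), in aleurone (0%) or in the interaction of tissue and age (0%). At an unadjusted p under 0.05 there were 0, 1 and 1 of the 40, against 3.44%, 1.03% and 2.05% of all tested genes. With the replicate number as a block there were 3, 8 and 5, against 4.34%, 1.66% and 2.57%, and 0 were called. DESeq2 called 0 of the 40 in each contrast, and 32, 3 and 2 genes overall.

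In starchy endosperm the median log2 fold change of the 40 genes between 22 and 18 DAP was -0.23, with 11 positive and 29 negative values, beside a median of -0.29 over all tested genes. That median was 0.04 without replicate 2 at 22 DAP and 0.01 without replicate 1 at 18 DAP, beside 0 over all genes tested then. Without replicate 1 at 22 DAP it was -0.36, with 3 positive and 37 negative values, beside -1.43. In aleurone it was 0.23, with 28 positive and 12 negative values, beside -0.01. For the interaction it was -0.45, beside -0.41. The 14 zeins were split evenly in starchy endosperm (7 positive and 7 negative, from -0.36 to 0.20), and 13 of them were positive in aleurone, with a median of 0.37. All 5 starch and sucrose genes were negative in starchy endosperm, from -0.71 to -0.33, and 4 of them positive in aleurone.

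In TPM, 23 of the 40 genes were lower at 22 than at 18 DAP in both replicate numbers of the starchy endosperm (36.4% of the 1865 genes with at least 10 TPM in every starchy endosperm library), and 8 were higher in both (23.4%). The ages did not overlap in 8 genes lower at 22 DAP (18.3% of the 1865) and 4 higher (11.7%). In aleurone 21 were higher at 22 DAP in both numbers (39.6%) and 8 lower (28.4%), with no overlap in 8 higher (17.1%) and 1 lower (9.65%). The 8 genes that were lower without overlap in starchy endosperm were sh1, ss1, gpc4, z1C1_7, z1C1_19, GRMZM2G178880, GRMZM2G058358 and GRMZM2G099074.

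The genes with the smallest unadjusted p in each contrast, picked after their values were seen, were still not called. For sh1 in starchy endosperm the log2 fold change was -0.71 (SE 0.41, adjusted p = 1 by edgeR), from the 1028 and 1487 TPM at 22 DAP and 1695 and 2273 TPM at 18 DAP given above. For z1C1_8 in aleurone it was 0.79 (SE 0.32, adjusted p = 1), with 4370 and 3046 TPM at 22 DAP and 2557 and 2083 TPM at 18 DAP, which did not overlap. z1A2_3 in aleurone had 1742 and 597 TPM at 22 DAP and 750 and 527 TPM at 18 DAP, which overlapped (0.93, SE 0.42, adjusted p = 1). Without replicate 1 of aleurone at 22 DAP that change was 0.31. For gpc4 the change was -0.44 (SE 0.31) in starchy endosperm and 0.63 (SE 0.31) in aleurone, with an interaction of -1.07 (SE 0.44, adjusted p = 1.00). In GRMZM2G036708 the interaction was -1.71 (SE 0.82, adjusted p = 1.00), and it was -0.79 without replicate 2 of starchy endosperm at 18 DAP and -1.06 without replicate 2 of aleurone at 22 DAP.

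**Figure D5:**
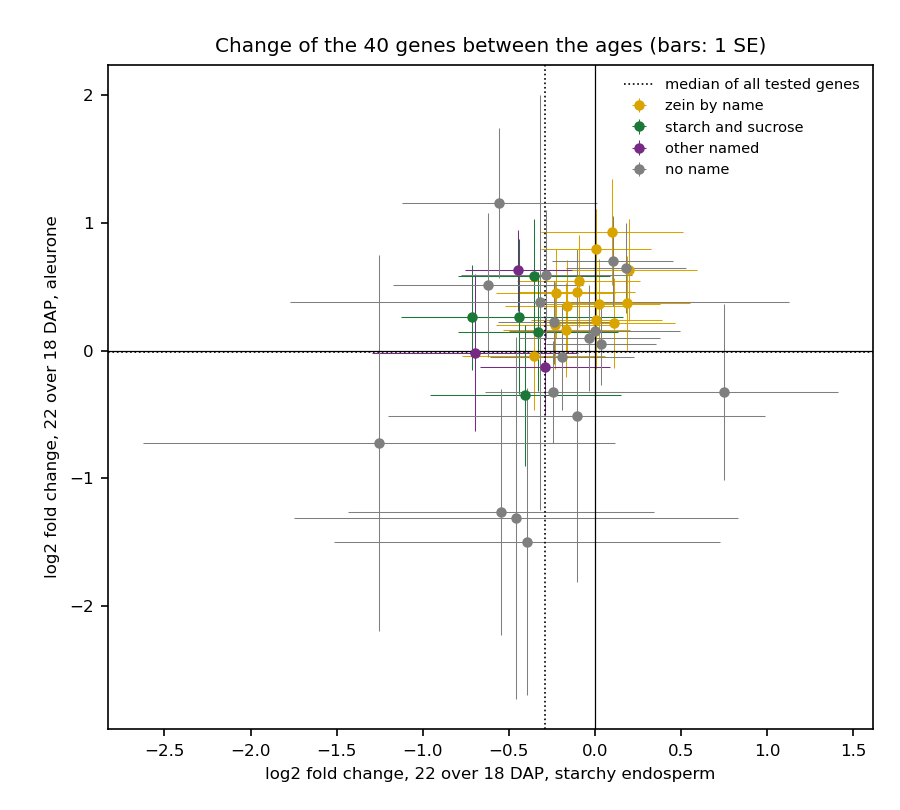
Each point is 1 of the 40 genes, with its log2 fold change of 22 over 18 DAP. The x axis is for starchy endosperm and the y axis for aleurone. Bars are 1 SE, derived from the F statistic of edgeR. Dotted lines are the medians over all tested genes (-0.29 and -0.01). None of the points was called on either axis, and the low genes without a name have the widest bars.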

How the data were processed

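RNA sequencing was done on 8 libraries, 2 for each of 4 groups of tissue and age. The submitters' processing notes name the build B73 RefGen_v3 and the tools RSEM 1.2.15, Bowtie2 2.2.3, FastQC and SAMtools. Which gene annotation was used, and whether counting was stranded, is not given in the sources used here. The authors' tables hold expected counts and TPM from RSEM for genes and for transcripts, per the file headers. The deposited transcript tables also hold the percent of each gene's TPM that falls to a transcript. The gene tables hold other values per the file headers: lengths and the posterior standard deviation of a count. A deposited table of the authors' mean TPM per group was used only for a check.

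The 40 genes were taken from TPM by the stated rule. The genes and the gene lists were chosen with earlier results of these data known. Names came from a RefSeq gene table (Zm-B73-REFERENCE-NAM-5.0), which matched 18908 of 39475 IDs (47.9%) and 35 of the 40 genes, 22 of them with a name. In the lists 52 symbols were not found and 11 were on several genes and left out. Marker symbols are not in these numbers. The lists for translation and membrane transport found no gene. Genes named in the text were the 10 of highest ratio, the 10 of highest mean TPM in starchy endosperm, list members, and 3 on each side of a threshold; others were named after their values were seen.

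Expected counts were rounded and tested with edgeR 4.0.16 (R 4.3.3): filterByExpr, which left 19058 genes, TMM scaling, and a quasi-likelihood fit of 4 group means to all 8 libraries, with Benjamini-Hochberg adjustment. An SE of a log2 fold change was derived as its absolute value divided by the square root of the F statistic. The code was tested on simulated data. Alternatives were RLE and library-size scaling, no filter, DESeq2 1.42.0, a replicate block, each tissue alone, and each library left out; for the rule, other minimums, a ratio of 3, CPM with and without TMM factors and each library left out. Counting precision is set by depth, 2473036 to 11529170 counts a library, where 3 counts are 1.21 to 0.26 CPM. Such floors cover counting error only and not the spread between replicate libraries. The p-values test a difference between the ages, or the interaction, against that spread. The small number of replicate libraries in each group limits these tests.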

Additional observations from a re-analysis of the deposited data

How the results depend on the processing

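The number of genes that met the rule was 40. It was 33 with a minimum of 20 TPM, 45 with a minimum of 5 TPM and 23 with a ratio of 3. With each library left out in turn it ran from 42 to 53, the highest without replicate 1 of starchy endosperm at 22 DAP. Leaving out a library can add genes but cannot remove any of the 40, so this range does not show how stable they are. With the same thresholds applied to TMM-scaled CPM it was 324, all 40 among them; this scale has TMM factors (0.537 to 0.645 in starchy endosperm, 1.53 to 1.95 in aleurone) and no length correction. On CPM without TMM factors, an alternative chosen after seeing the data, it was 67, with 39 of the 40 among them. On TMM-scaled CPM the lowest ratio of the 40 was 6.06 and the median 12.9, against 2.02 and 3.16 in TPM. When the rule was applied within each replicate number, also chosen after seeing the data, 68 genes met it. All 40 are among them by construction, since a gene that meets the rule over all libraries also meets it within each number.

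Between the ages, 0 of the 40 genes were called in starchy endosperm, aleurone or the interaction under every alternative, leaving out each library included (0 to 0). Without replicate 1 of starchy endosperm at 22 DAP, 3166 genes overall were called in starchy endosperm and 2260 in the interaction; with no filter on low counts it was 62, 6 and 17 in the 3 contrasts. The median of the 40 genes in starchy endosperm was -0.23. It was -0.36 without replicate 1 and 0.04 without replicate 2 of starchy endosperm at 22 DAP. Without replicate 1 and without replicate 2 of starchy endosperm at 18 DAP it was 0.01 and -0.17. The gene values given between ages kept their sign under all alternatives; those of z1A2_3 in aleurone and of GRMZM2G036708 in the interaction moved by over 1.5 times when 1 library was left out, from 0.31 to 1.36 and from -2.25 to -0.79.

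The labels do not say that libraries of one number belong together. Replicate differences correlated over 19058 genes in all 6 pairs of groups (r from 0.19 to 0.41), and over the 40 genes from -0.22 to 0.82. With the replicate number as a block, 0 of the 40 genes were called in each contrast, and 3, 8 and 5 had an unadjusted p under 0.05, against 4.34%, 1.66% and 2.57% of all tested genes.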

Other observations

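Applied within each replicate number, the rule added 28 genes to the 40, among them 4 zeins (gz27, gz16, z1B_8 and z1C1_6), the starch genes pho1, zpu1 and sugary2, and gpc3, another cytosolic glyceraldehyde-3-phosphate dehydrogenase. gpc3 (GRMZM2G071630) had 442 and 323 TPM at 22 DAP and 468 and 384 TPM at 18 DAP in starchy endosperm, against 178 and 61.5 TPM at 22 DAP and 86.5 and 86.9 TPM at 18 DAP in aleurone. z1B_8 (GRMZM2G025763) had 13289 and 7506 TPM at 22 DAP and 12484 and 6712 TPM at 18 DAP in starchy endosperm, against 4678 and 1370 TPM at 22 DAP and 1911 and 1031 TPM at 18 DAP in aleurone. Of the added genes without a name, GRMZM2G044822 stood out by the gap between its replicates: 35.0 and 391 TPM at 22 DAP and 34.6 and 349 TPM at 18 DAP in starchy endosperm, against 5.51 and 45.7 TPM at 22 DAP and 6.89 and 14.7 TPM at 18 DAP in aleurone.

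On TMM-scaled CPM the rule took 22 of the 26 zeins found by name and 8 of the 12 starch synthesis genes, and it also took o2, gpc3, the defense gene cystatin6 and the imprinted gene nrp1. No gene of protein bodies and the endoplasmic reticulum or of amino acid metabolism entered on that scale, and sh1 was still the sole gene of sucrose cleavage and sugar entry.

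In the authors' deposited table of mean TPM, every gene that was at 0 in 1 of the 2 libraries of a group is listed at 0: 8799 genes in starchy endosperm at 22 DAP, 6385 at 18 DAP, 5565 in aleurone at 22 DAP and 4807 at 18 DAP. Among the 40 genes, 4 are listed at 0 in aleurone at 22 DAP (GRMZM2G170509, GRMZM2G031200, GRMZM2G040702 and GRMZM2G058358) and 1 at 18 DAP (GRMZM2G170509), although each had counts in the other library. GRMZM2G058358 had 12.5 TPM in replicate 1 of aleurone at 22 DAP.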
